A study of Homo sapiens with 40 samples.

Results

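H3K27me3 peaks of control cells were compared with those of SETDB1 knockout (KO) cells over chromosomes 1 to 22 and X. The control list held 90822 peaks and the KO list 67482, together 158304 of the 614567 peaks in the 10 ChIP-seq lists of the series, and no peak of either list lay on another sequence. A control peak was called kept if it shared at least 1 bp with a KO peak and lost if it shared none, and a KO peak without a control partner was called new. H3K27me3, trimethylation of lysine 27 of histone H3, is placed by Polycomb repressive complex 2 (PRC2), in which EZH1 or EZH2 is the catalytic subunit and EED and SUZ12 are required partners. It marks facultative heterochromatin, repressed chromatin whose genes can be active in other cell types, and it is bound by the CBX subunits of canonical PRC1. SETDB1 places a different repressive mark, H3K9me3, typical of constitutive heterochromatin, silenced retroelements and zinc finger gene clusters.

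The cells were A549, an established human lung adenocarcinoma line that carries K-RAS G12S, grown in the same serum-containing medium in both groups. The control group (CT) was A549 labelled as control, and the KO group was A549 with SETDB1 disrupted by CRISPR/Cas9 with guides cloned into the PX458 plasmid. The labels do not say whether the KO cells were 1 clone or how many guides were used, nor do they describe a mock-edited control. H3K27me3 was profiled by ChIP-seq of MNase-cut chromatin in 2 libraries per genotype, beside H3K9me3, H3K27ac, H3K4me3 and CTCF, Hi-C with 2 libraries per genotype and RNA-seq with 3.

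Each mark and genotype had 1 deposited peak list, with positions on hg19 and no scores, so values from peaks carry no replicate error. Intervals on them are 95% Wilson or Poisson intervals and cover counting error only. The sequencing depth behind the H3K27me3 lists is unknown here, and its part in the difference in peak number was not tested. RNA-seq libraries held 18065062 to 48364919 counts. All 5 epithelial markers and all 5 A549 metabolic markers were at 1 CPM (counts scaled to library size) or more in every library, with summed epithelial levels of 2930 to 3197 CPM in control and 8825 to 9521 CPM in KO. Leukocyte markers summed to at most 6.02 CPM and fibroblast markers to at most 5.06 CPM. Of the 4 endothelial markers found, CDH5 was at 0.29 CPM on average in control and 4.53 CPM in KO, and VWF, KDR and TEK were at most at 0.18 CPM in any library. The targeted transcript, SETDB1, was at 37.5, 39.6 and 38.7 CPM in the control libraries and 23.4, 21.2 and 21.1 CPM in the KO libraries, so the groups did not overlap (log2 fold change -0.82, SE 0.060, adjusted p 1.70e-12 in edgeR's quasi-likelihood test).

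Fewer and less extensive H3K27me3 regions were found in KO. Peak length was 370.6 Mb in control, 12.2% of the chromosome length, and 284.5 Mb in KO, 9.37%. The log2 ratio of KO over control was -0.43 in number (-0.44 to -0.41) and -0.38 in length. Of the control peaks, 42708 were lost, a share of 47.0% (46.7 to 47.3), and 48114 were kept. Of the KO peaks, 19550 were new, a share of 29.0% (28.6 to 29.3), and 47932 overlapped a control peak. A reciprocal overlap of at least 50% raised the lost share to 70.4% and the new share to 60.1%. By length, 196.2 Mb carried peaks in both genotypes, 174.4 Mb in control only and 88.3 Mb in KO only. Lost peaks accounted for 124.6 Mb of the control-only sequence and the edges and gaps of kept peaks for 49.8 Mb. KO-only sequence was divided more evenly, with 46.2 Mb in new peaks and 42.1 Mb in KO peaks that overlapped a control peak.

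Lost and new peaks were narrow. The median width was 3422 bp for kept control peaks and 2036 bp for lost ones, and in KO 3428 bp for kept and 1777 bp for new peaks. Peaks of at least 10 kb made up 11.8% of kept control peaks (11.5 to 12.1) but 3.05% of lost and 1.28% of new peaks. The lost share was highest, at 69.3% (67.7 to 71.0), among the 3037 control peaks of up to 500 bp. It was 46.0% between 2000 and 5000 bp, 20.5% between 10000 and 20000 bp, and 8.77% (3.805 to 18.9) among the 57 peaks over 50000 bp. The new share followed the same order, from 60.2% of the narrowest to 3.70% of the 54 widest KO peaks. Since 1 bp of overlap was enough, a wide peak could meet a partner more easily, and the part of this in these shares was not tested. By length, 29.1% of the sequence of control peaks of up to 500 bp lay in KO peaks. Wide domains mostly had a partner in the other genotype, although not over their full length: control peaks over 50000 bp had KO peaks on 73.0% of their sequence.

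**Figure D1:**
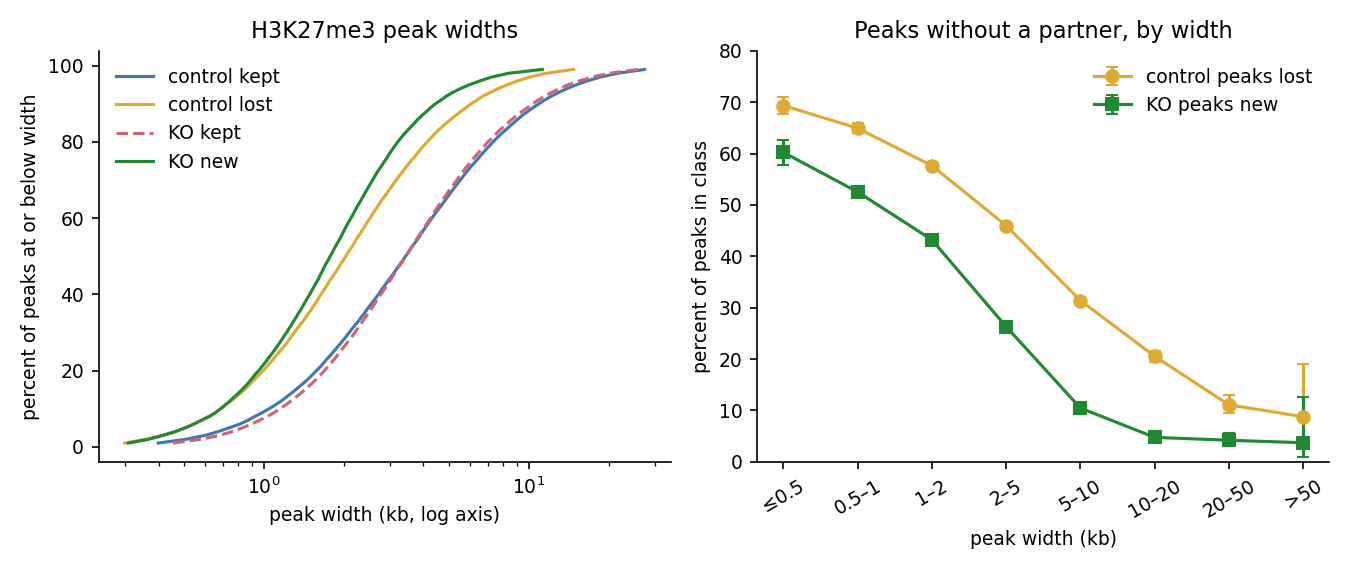
Left, the cumulative percent of H3K27me3 peaks (y axis) at or below each width (x axis, kb, log scale) for kept and lost control peaks and kept and new KO peaks; the curves of lost and new peaks lie to the left of both kept curves. Right, the percent of peaks without a partner (y axis) by width class (x axis, kb), with 95% Wilson intervals, which goes from 69.3% to 8.77% in control and from 60.2% to 3.70% in KO.

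Among kept peaks with a single partner, the median width was about the same in both genotypes, while the widths within a pair often differed. In 30338 pairs of 1 control and 1 KO peak that overlapped only each other, the median widths were 3176 bp in control and 3182 bp in KO. The median log2 width ratio of these pairs was 0.025, with quartiles of -0.38 and 0.46, and 46.6% of the KO peaks were the narrower of the pair. Splitting was seen in 5649 control peaks, which met at least 2 KO peaks each, and joining in 6163 KO peaks, which met at least 2 control peaks. From lost peaks the nearest KO peak was a median of 30214 bp away, within 10 kb for 31.5% of them and beyond 100 kb for 25.9%. From new peaks the nearest control peak was a median of 10324 bp away, within 10 kb for 49.4% and beyond 100 kb for 19.5%. The control list held more peaks than the KO list, and its part in this difference was not tested.

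The lower coverage was found on 22 of the 23 chromosomes. Chromosome 18 had the lowest log2 ratio of covered length, -0.64 (13.99% of its length in control, 8.96% in KO), and lost 55.0% of its control peaks. Next came chromosome 2 at -0.63, chromosome 1 at -0.54 and chromosome 11 at -0.51. Chromosome 19 stood at the other end, with more H3K27me3 in KO: its covered share was 9.71% in control cells against 13.3% in KO cells, which is a log2 ratio of 0.46. Only 23.1% (20.9 to 25.4) of its control peaks were lost, the lowest share of any chromosome, and 37.3% (34.8 to 39.8) of its KO peaks were new, the highest. Chromosomes X, 17 and 22 had ratios of -0.00, -0.04 and -0.06. On X losses and gains were nearly equal in length, with 5.94 Mb of lost against 5.89 Mb of new sequence, beside 13.9 Mb covered in control. There 45.3% of control peaks were lost and 36.2% of KO peaks were new. The peak number on chromosome 19 did not differ beyond counting error (log2 ratio 0.048, interval -0.058 to 0.16), so its higher coverage lay in wider peaks.

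H3K9me3 also differed on chromosome 19, and its part in the H3K27me3 values there was not tested. Its H3K9me3 coverage was 32.1% in control, the highest of all chromosomes, against 8.20% in KO (log2 ratio -1.97). Chromosome 22 was the only other chromosome with a lower H3K9me3 length in KO (log2 ratio -0.50), and chromosome X had the highest H3K9me3 ratio (2.15). On chromosome 19, 69.3% of the 3.28 Mb of new H3K27me3 sequence had lain in control H3K9me3 peaks. On the other chromosomes that share ran from 6.01% on X to 30.3% on chromosome 7. Chromosomes 2 and 12 had H3K27ac length ratios of -0.21 and 0.42, and leaving both out moved neither the ratio of number nor that of length by more than the counting error.

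**Figure D2:**
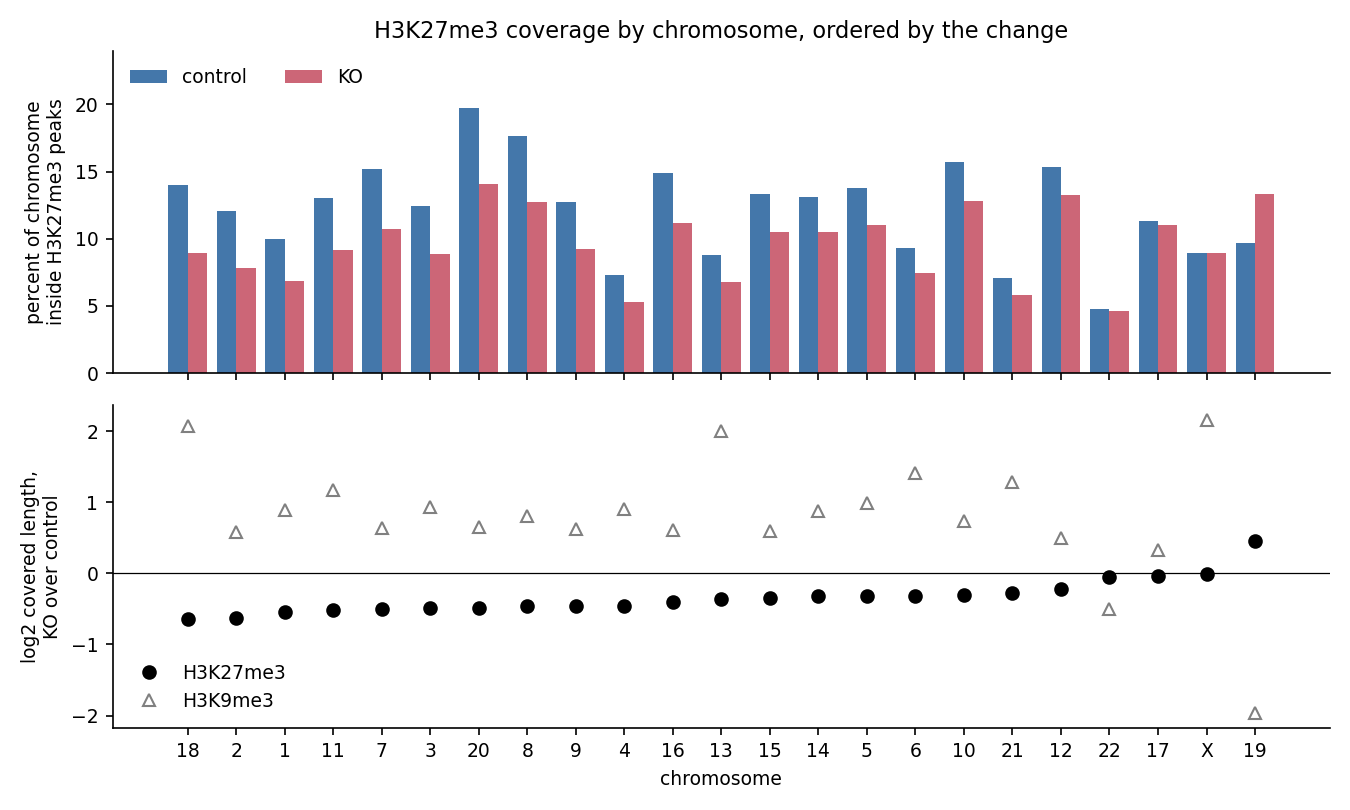
Top, percent of each chromosome inside H3K27me3 peaks (y axis) in control and KO, with chromosomes (x axis) ordered by the change. Bottom, log2 ratio of covered length, KO over control (y axis), for H3K27me3 (circles) and H3K9me3 (triangles). Chromosome 19 at the far right has the only H3K27me3 ratio above 0 (0.46) and the lowest H3K9me3 ratio (-1.97).

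Hi-C divides the genome into an A compartment of active chromatin and a B compartment of repressed chromatin. Bins of 100 kb were called A where the deposited control signal was above 0 and B where it was below, and 26496 of 30376 bins had a value in every column. H3K4me3 peaks covered 5.91% of control A bins and 0.843% of control B bins, and H3K27ac peaks 6.94% and 0.432%. H3K27me3 was lost mainly from B. Of 54922 control peaks in B bins, 61.1% (60.7 to 61.5) were lost, against 24.9% (24.4 to 25.3) of 33485 in A bins, and B bins held 78.6% of all lost peaks. New peaks were spread over both compartments, with 53.7% of them in A and 41.8% in B. They made up 30.7% (30.2 to 31.2) of KO peaks in A and 26.4% (25.9 to 26.9) in B. This order turned when a reciprocal overlap of at least 50% was required, which gave 56.5% in A and 64.2% in B. The lost share stayed higher in B under that rule, at 79.8% against 55.6% in A.

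By length, the compartments differed in the balance of loss and gain. In A bins 30.2 Mb was lost and 46.4 Mb was new, and 8.84% of the sequence was covered in control, 9.94% in KO. B bins lost 141.7 Mb and gained 37.8 Mb, with coverage of 19.7% and 10.9%. Bins that were B in both genotypes had coverage of 20.8% and 10.7%, with 61.8% of the control length lost. Control coverage was highest, at 24.4%, in the 1573 bins that switched from A to B, where KO coverage was 21.6%. The 1551 bins that switched from B to A had nearly equal totals of 12.3% and 11.99%, made in part of different sequence: 49.3% of their control length was lost and 48.0% of their KO length was new.

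Along the signal itself, H3K27me3 had its maximum in weak B chromatin. Bins were divided into deciles of the control signal, the first decile being the most B. Control coverage was 5.27% in the first decile, 31.2% in the fourth and 3.22% in the last. In KO the maximum was again in the fourth decile, at 18.6%, but the flank toward B was lower: the second decile had 13.5% in control and 6.11% in KO, and the third 25.9% and 11.7%. From the sixth decile on, KO coverage was the higher, at 15.2% against 14.9% in the sixth, 11.2% against 9.26% in the seventh and 4.69% against 3.22% in the last. KO H3K9me3 coverage was lower in each decile than in the one before, from 78.1% in the first through 23.6% in the fourth to 0.36% in the last, where control had 23.1%, 12.2% and 6.46%.

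**Figure D3:**
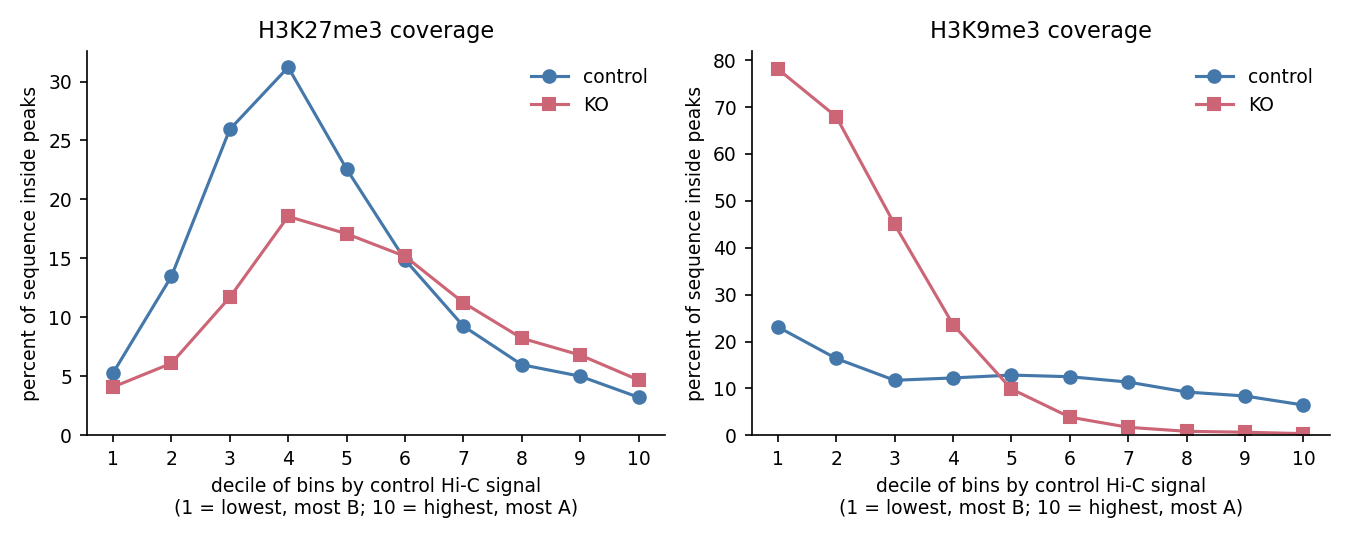
Percent of sequence inside H3K27me3 peaks (left, y axis) and H3K9me3 peaks (right, y axis) in deciles of the 100 kb bins ordered by the control Hi-C compartment signal (x axis), for control and KO. H3K27me3 has its maximum in the fourth decile in both genotypes, 31.2% and 18.6%, and KO lies below control in the first 5 deciles and above it in the last 5.

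Lost H3K27me3 and KO H3K9me3 coincided in B. Each base of the control H3K27me3 peaks was classed by whether it lay in an H3K9me3 peak in control only, in KO only, in both or in neither. In B bins, bases with H3K9me3 in KO only lost 82.6% of their H3K27me3, and those with it in both genotypes 54.3%. The share was 47.9% where neither genotype had H3K9me3 and 37.8% where only control had it. Of all sequence that lost H3K27me3, 42.3% was B sequence with H3K9me3 in KO only. A further 26.9% was B sequence in which neither list had an H3K9me3 peak. KO H3K9me3 peaks covered 60.8% of lost, 28.4% of kept and 29.1% of new H3K27me3 bases in B, against 49.2% of all B sequence. In A the order of lost and kept turned, with 9.89% of lost, 15.2% of kept and 3.79% of new bases, against 2.13% of all A sequence. Over all sequence KO H3K9me3 covered 51.5% of lost, 21.4% of kept and 15.2% of new bases, against a share of 20.5% overall. Counted over whole peaks, 60.9% of the length of lost peaks and 22.8% of that of kept peaks lay in KO H3K9me3. Restricting KO H3K9me3 to peaks without a control H3K9me3 partner lowered these shares to 22.6% and 6.55% and left their order.

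In A bins, 72.3 of 129.4 Mb of control H3K27me3 had H3K9me3 in neither genotype. The marks still met more often than in A sequence at large. Control H3K9me3 peaks covered 37.1% of lost and 38.7% of kept H3K27me3 bases in A, against 9.90% of all A sequence. A small amount, 12.7 Mb of A sequence with H3K9me3 in both genotypes, was 82.7% covered by H3K27me3 in control and 79.4% in KO, and only 8.95% of that control length was lost. A sequence with H3K9me3 in control only, 132.2 Mb, was 29.6% covered in control and lost 26.3% of that length, and sequence with it in neither genotype lost 23.4%. Across bins, described without a test because neighbouring bins share peaks and mappability, the coverage of the 2 marks correlated with a Pearson r of 0.42 in A (14637 bins) and -0.05 in B (11859 bins) in control. In KO the values were 0.32 in A and -0.35 in B. Spearman's rho was 0.43 in A and -0.03 in B in control, and 0.59 and -0.42 in KO, so in A the coefficients moved in opposite directions.

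**Figure D4:**
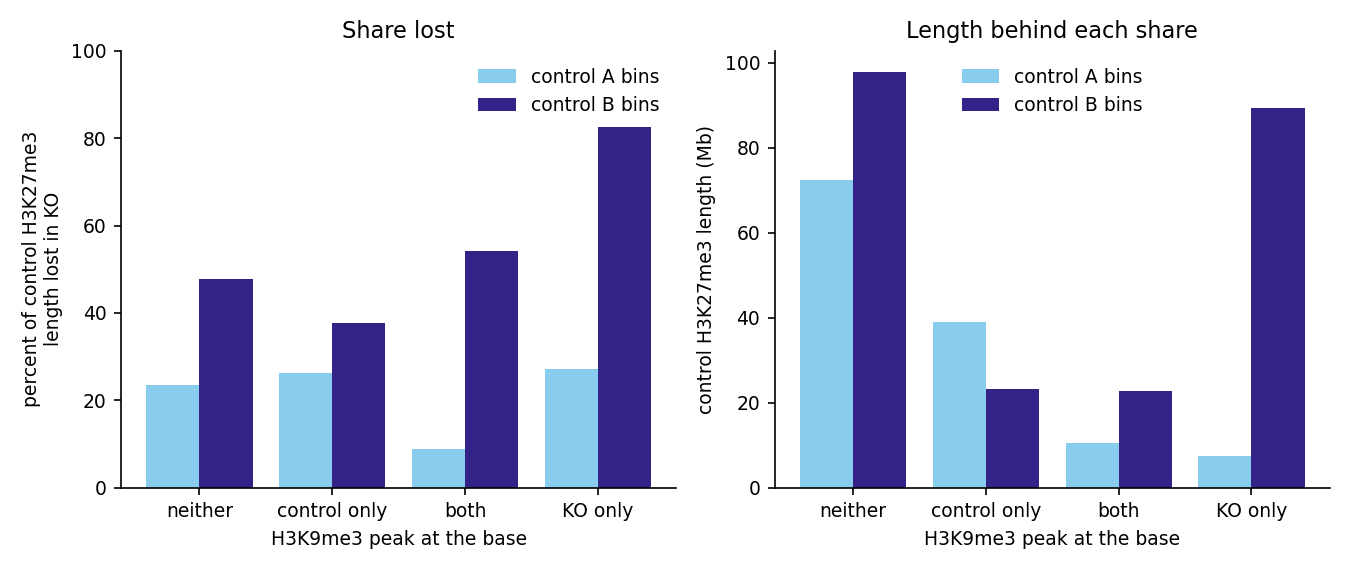
Left, percent of control H3K27me3 length lost in KO (y axis) by where H3K9me3 peaks lay at the base (x axis), in control A and B bins. Right, the control H3K27me3 length in Mb (y axis) behind each share. The highest share, 82.6%, is that of B sequence with H3K9me3 in KO only, which holds 89.3 Mb.

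Bins with a like position on the compartment axis were also compared. Within the third decile, bins with at least 50% KO H3K9me3 coverage lost 84.8% of their H3K27me3 length, against 52.1% in bins under 10%. In the fifth decile the shares were 80.3% and 36.7%. Over the first 5 deciles they ran from 80.3% to 88.4% in bins rich in KO H3K9me3 and from 36.7% to 56.2% in bins poor in it. Their control H3K9me3 coverage was not always alike: it was 12.2% and 11.1% in the third decile, but 21.4% and 37.5% in the first and 17.5% and 11.1% in the fifth. Bins with 10% to 50% KO H3K9me3 coverage lost a smaller share than bins under 10% in each of the 9 deciles that held both, for example 35.2% against 56.2% in the first and 38.0% against 43.2% in the fourth. They also had more H3K27me3 than bins under 10%, for example 42.1% against 21.9% in control and 31.7% against 16.0% in KO in the fourth decile, so the lost share did not increase steadily with KO H3K9me3.

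By H3K9me3 history, new H3K27me3 was distributed much like sequence at large, apart from less of it in KO-only and more in control-only H3K9me3. Sequence with H3K9me3 in neither list held 73.5% of the new length and made up 72.4% of all sequence. Control-only H3K9me3 sequence held 11.3% of the new length and was 7.06% of all sequence, KO-only sequence held 10.3% and was 16.3%, and sequence with both held 4.89% and was 4.27%. Relative to what was free of H3K27me3 in control, the gain was 9.85% in B sequence that had H3K9me3 in control only, against 5.11% in B sequence with it in neither and 2.02% with it in KO only. In A the corresponding values were 4.46%, 3.29% and 11.3%, and 23.6% where both genotypes had it.

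H3K27ac was nearly absent from H3K27me3 sequence, whereas H3K4me3 was present at a lower level than in the rest. H3K27ac, an acetylation of the same lysine that cannot occur together with its trimethylation, covered 0.0046% of kept bases in control and 0.029% in KO, against 3.59% and 3.96% of all sequence. On lost bases it covered 0.015% in control and 0.29% in KO. A KO H3K27ac peak overlapped 404 lost peaks (0.946%, 0.859 to 1.04) and 427 kept control peaks (0.8875%, 0.8075 to 0.9753). Among peaks of 1 to 5 kb these shares were 0.959% and 0.570%. By length, KO H3K4me3 covered 1.12% of lost, 1.01% of kept and 1.25% of new bases, against 3.77% of all sequence. In B the KO values were 0.915%, 1.13% and 1.23%, against 1.49% of all B sequence. H3K4me3, a mark of promoters that occurs together with H3K27me3 at bivalent sites, met 6.67% (6.45 to 6.90) of kept control peaks and 2.08% (1.95 to 2.22) of lost ones. In KO it met 8.80% (8.55 to 9.05) of kept and 5.59% (5.27 to 5.92) of new peaks. Since wide peaks meet other peaks more often, peaks of 1 to 5 kb were also compared. H3K4me3 then met 4.83% of kept and 1.962% of lost control peaks, and 6.25% of kept and 5.37% of new KO peaks. CTCF, the insulator protein, covered 0.23% of lost, 0.22% of kept and 0.32% of new bases in KO, against 0.36% of all sequence. It overlapped 3.16% of kept and 1.42% of lost control peaks and 4.70% of kept and 2.03% of new KO peaks. At 1 to 5 kb these CTCF shares were 1.64%, 1.05%, 2.65% and 2.04%.

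Few new H3K27me3 peaks, 1212 or 6.20%, met an H3K4me3 peak of either genotype. Of the 557 new peaks that met H3K4me3 present in both genotypes, 83.7% lay in control A bins. Of the 535 that met an H3K4me3 peak found in KO only, 21.5% did. Kept KO peaks had the same order with a smaller gap, 55.3% and 39.7%. Lost peaks that met H3K4me3 numbered 1748, of which 859 met it in KO only, 548 in both genotypes and 341 in control only. Of the 4961 kept control peaks that met it, 1750 did so in KO only, 2795 in both genotypes and 416 in control only. H3K4me3 found in KO only thus met 2.01% of lost peaks and 3.64% of kept control peaks, which were wider.

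Compartment signals were then read in bins whose H3K27me3 coverage differed by at least 10 percentage points. There were 4178 bins with a fall and 1972 with a rise, on all 23 chromosomes. Fall bins had 44.5% H3K27me3 coverage in control cells and 12.2% in KO cells, while H3K9me3 coverage was 11.7% and 47.6%. Their mean Hi-C signal was -0.38 and -0.37 in the control libraries and -0.62 and -0.62 in the KO libraries, so both KO libraries were more B-like than both control libraries. With limma, 3140 fall bins (75.2%) had a lower signal in KO at an adjusted p under 0.05, against 37.6% of all bins. A higher signal was called in 588 fall bins (14.1%), below the 21.4% among all bins. Within control B bins, 77.6% of fall bins were called lower, against 44.9% of all B bins. Within control A bins, fall bins were called more often in both directions, 60.4% lower against 31.7% of all A bins and 27.2% higher against 15.9%. The 2 libraries per genotype have no further independent check, and the labels do not say that they came from separate cultures, so these tests measure the spread between libraries only.

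Rise bins are given apart for A and B, and the difference between these sets was not tested. In the 821 rise bins of control B, H3K27me3 coverage was 13.5% in control and 39.8% in KO. Their mean signal was -0.62 and -0.61 in control and -0.21 and -0.21 in KO, and 72.8% were called higher, against 28% of all B bins. In the 1151 rise bins of control A, H3K27me3 coverage was 20.5% and 38.2%, and the signal was 0.58 and 0.59 in control and 0.47 and 0.47 in KO. Of these A bins 45.4% were called lower and 11.6% higher, against 31.7% and 15.9% of all A bins. H3K4me3 peaks, counted in each bin they touched, numbered 531 in control and 1910 in KO in the B rise bins, and 2489 and 2611 in the A rise bins. They were also more numerous in KO over all B bins, 8600 and 15586, and over all A bins, 47373 and 52693.

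**Figure D5:**
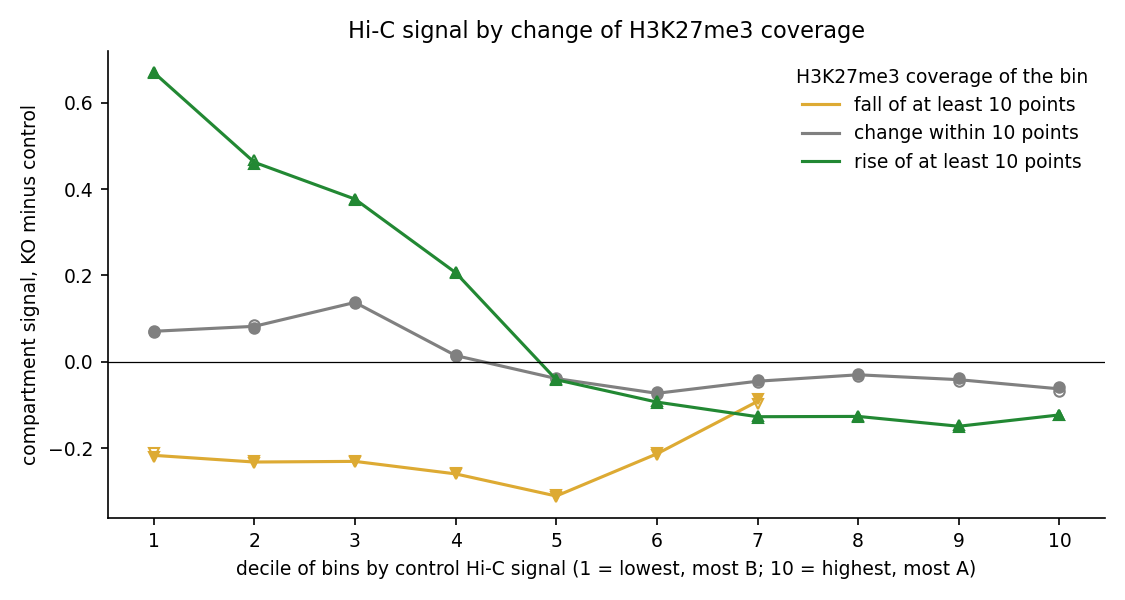
Mean Hi-C compartment signal, KO minus control (y axis), in deciles of bins by the control signal (x axis), for bins with a fall, a rise or a smaller change of H3K27me3 coverage; groups under 20 bins are left out. Lines are differences of genotype means, and filled and open symbols are KO libraries 1 and 2, each minus the mean of the control libraries. Rise bins lie at 0.67 in the first decile and -0.12 in the last, and fall bins below 0 in each of the 7 deciles shown.

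Fall and rise bins in B were also divided by their H3K9me3 change; the signals of these subgroups are a description, and their differences were not tested. Of the 3590 fall bins in B, 2381 (66.3%) had an H3K9me3 rise of at least 20 points, against 56.7% of all B bins, and H3K27me3 in them was 45.3% in control and 6.56% in KO, with signals of -0.56 and -0.55 in control and -0.92 and -0.91 in KO. In the 1075 fall bins whose H3K9me3 stayed within 20 points, H3K27me3 was 45.2% and 20.1%. Their signal was -0.32 in both control libraries and -0.37 in both KO libraries. Over all 4386 B bins with H3K9me3 within 20 points, the signal was -0.37 in both control libraries and -0.22 in both KO libraries. The 134 fall bins in which H3K9me3 was lower by at least 20 points had signals of -0.28 and -0.29 in control and -0.02 and -0.03 in KO. Among rise bins in B, H3K9me3 stayed within 20 points in 445 and rose by at least 20 points in 219 (26.7%, against 56.7% of all B bins). Of these 219, 6.39% switched to A, against 0.25% of all B bins with such an H3K9me3 rise. The other 157 rise bins (19.1%, against 6.36% of all B bins) had an H3K9me3 fall of at least 20 points. Their signals were -0.75 in both control libraries and 0.02 in both KO libraries, and 48.4% of them switched to A. Their H3K4me3 peaks numbered 108 in control and 587 in KO. The switch was as frequent in all 754 B bins with such an H3K9me3 fall, at 48.7%. Signals in these 754 bins were -0.54 and -0.55 in control and 0.0004 and -0.0007 in KO, and H3K4me3 peaks numbered 990 and 2845.

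Loss was also read over topologically associating domains (TADs), the self-interacting segments seen in Hi-C. Of 4621 control TADs of at least 200 kb, 1205 had H3K27me3 on at least 20% of their length in control. Of these covered TADs, 443 lost 0 to 20% of the control length, 220 lost 20 to 40%, 145 lost 40 to 60%, 178 lost 60 to 80% and 219 lost 80 to 100%. Control H3K27me3 coverage was alike at both ends, 42.1% on average in the TADs that lost most and 41.1% in those that lost least. KO H3K9me3 coverage averaged 61.0% in the former and 10.4% in the latter, and control H3K9me3 coverage 8.52% and 18.9%. The mean compartment signal was -0.42 in control and -0.75 in KO in the TADs that lost most, and 0.28 and 0.17 in those that lost least.

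The regions below show the range of these patterns; no hg19 gene annotation was used, so they are given by position only. The widest lost peak, 96.8 kb at chr14:34034911-34131723, had H3K9me3 on 13.3% of its length in control and along its whole length in KO, and the signal of its 2 bins was -0.52 in control and -1.06 in KO. It lay inside the third-ranked TAD by fall, chr14:33040001-34280000, where H3K27me3 was 79.3% and 7.03%. KO H3K9me3 covered at least 84.1% of each of the 5 widest lost peaks, which were on chromosomes 14, 16, 7, 2 and 12. The TAD with the largest fall, chr8:20260001-20880000, had H3K27me3 on 80.6% of its length in control and 3.03% in KO, while H3K9me3 was 19.9% and 96.0%. In the other 4 of the 5 largest falls H3K27me3 was 70.8% to 79.3% in control and at most 7.03% in KO, with KO H3K9me3 of 79.6% to 94.6%. Adjacent TADs on chromosome 12, chr12:4920001-5200000 and chr12:5200001-6020000, were both among them.

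The longest run of neighbouring bins with a fall did not follow that pattern. It spanned 25 bins at chr3:54000001-56500000, where H3K27me3 was 46.3% in control and 11.5% in KO. H3K9me3 there was 12.2% and 29.7%, far less than in the TADs above, and the mean signal was -0.04 and -0.49. Of the 25 bins, 11 were A in control.

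The widest domains of control cells were mostly kept by the 1 bp rule, with 8.77% of the 57 control peaks over 50000 bp lost. The control peaks described next were picked from the kept ones, and the lost peak of 96.8 kb given above was wider than some of them. The widest control peak, 118.6 kb at chr15:60244095-60362668, had KO peaks on 98.7% of its length, and its H3K9me3 was 47.0% in control and 21.9% in KO. The next 3 kept peaks by width had KO H3K27me3 on 87.3% to 97.7% of their length, including chr15:33770617-33872604 with 83.4% KO H3K9me3. The fifth, chr20:59290765-59383105, retained 23.4%, with H3K9me3 of 66.1% in control cells and 92.4% in KO cells. The widest KO peak, 93.4 kb at chr8:18083065-18176450, was 95.02% covered in control.

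The TAD with the largest rise of H3K27me3 coverage was on chromosome 19. In total length the chromosome had less new H3K27me3 sequence than some others, 3.28 Mb against 6.86 Mb on chromosome 5. The TAD chr19:57160001-57640000 had no H3K27me3 peak in control and 26 in KO, which covered 90.2% of it, while H3K9me3 was 98.3% and 36.1% and the signal -1.34 and -0.77. It contained 4 of the 5 widest new peaks, among them the widest, 87.3 kb at chr19:57385500-57472814. Without this TAD the chromosome 19 log2 length ratio was 0.38. The nearby TAD chr19:56200001-56560000 had 36.3% and 85.1% H3K27me3 and 78.9% and 52.1% H3K9me3. In these domains the marks overlapped in KO: 53.3% of the widest new peak also lay in KO H3K9me3 peaks. Over the whole chromosome the 45 rise bins had mean H3K27me3 coverage of 16.4% and 58.8% and H3K9me3 coverage of 72.7% and 17.5%.

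Gains elsewhere had varied settings, some of them with less H3K9me3 in KO, as on chromosome 19. The second widest new peak, 63.2 kb at chrX:116131897-116195061, had almost no control H3K9me3 (1.33%) but 49.9% in KO, and its bin had signals of -0.99 and 0.42, a switch from B to A. The TADs chr5:122960001-123280000 (10.1% and 61.4% H3K27me3) and chr4:15220001-15480000 (9.94% and 51.2%) were A in both genotypes. Their H3K9me3 was 42.1% in control and 18.25% in KO on chromosome 5, and 10.49% and 7.11% on chromosome 4. In chr16:31480001-31940000, H3K27me3 was 9.31% and 46.6% and H3K9me3 68.7% and 13.4%. The longest run of rise bins, 12 bins at chr2:81300001-82500000, had no H3K27me3 peak in control and 113 in KO, covering 28.7%. Its H3K9me3 was 61.3% and 19.0%, its H3K4me3 peaks 2 and 52, its H3K27ac peaks 0 and 9 and its CTCF peaks 27 and 6, and the signal was -0.66 and -0.12.

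RNA of the Polycomb machinery was read from 44 genes of PRC2, PRC1 and their counteracting enzymes. Of the 42 tested, 10 were higher and 17 lower in KO (edgeR, adjusted p under 0.05), where 32.8% of all 17767 tested genes were higher and 30% lower. Their median log2 fold change was -0.05, against 0.0038 for all genes. Among the 6 PRC2 core genes none was higher and 4 were lower. EZH2, the main PRC2 methyltransferase of dividing cells, was at 35.0, 35.3 and 36.5 CPM in control and 29.1, 29.1 and 30.9 CPM in KO, with a log2 difference of -0.26 between genotypes (SE 0.056, edgeR adjusted p 0.000178). EED, which binds H3K27me3 and stimulates the enzyme, was at 24.2, 21.6 and 21.5 CPM in control and 17.3, 16.9 and 17.2 CPM in KO (log2 fold change -0.39, SE 0.068). SUZ12, the scaffold of the complex, was at 170.6, 159.9 and 169.2 CPM and 149.0, 137.9 and 141.8 CPM (log2 fold change -0.22, SE 0.044). The differences in these 3 genes were small, and a lower level in KO was called for 30% of all tested genes. EZH1, the alternative catalytic subunit, was at 32.0 to 38.4 CPM in control and 35.5 to 37.2 CPM in KO and did not pass the test (edgeR adjusted p 0.337), but passed it without control library 1 (log2 fold change 0.15, adjusted p 0.0235).

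Both H3K27 demethylases were higher. KDM6A was at 40.8, 37.3 and 38.7 CPM in control and 45.4, 42.4 and 44.5 CPM in KO (log2 fold change 0.17, SE 0.054, edgeR adjusted p 0.00676). KDM6B was scarce, at 4.46, 5.91 and 4.09 CPM in control and 5.81, 7.61 and 6.86 CPM in KO, and its groups overlapped (log2 fold change 0.55, SE 0.13, edgeR adjusted p 0.000589). PRC1 ubiquitinates histone H2A and compacts chromatin, and 5 of the 8 genes of its catalytic core and PCGF subunits were lower, none higher. Among them PCGF1 had a log2 fold change of -0.62, PCGF5 of -0.44 and BMI1 of -0.42. Canonical PRC1 members moved both ways, with CBX2, a reader of H3K27me3, at -0.69 and SCML2 at -0.54, but PHC1 at 0.68. BCOR of variant PRC1 was lower by a log2 fold change of -0.39 and ASXL2, a partner of the H2A deubiquitinase BAP1, by -0.63. These 8 genes were picked as the largest called changes of the list, so that each passed the edgeR test follows from the choice. RNA levels do not measure the protein or its activity.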

How the data were processed

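The peak lists deposited by the authors hold hg19 positions without a score or signal; the submitters' processing notes name STAR 2.6.1c, edgeR 3.30.0, Bowtie2 2.2.3, SAMtools 1.5, Picard and MACS2 without their roles. The caller's threshold, and whether the 2 libraries of a mark were pooled before calling, are not given in the sources used here. KO H3K4me3 libraries, whose mark label lacks a digit, were grouped by their description. The deposited compartment table gives a signed score per 100 kb bin for each Hi-C library and each genotype, on a scale the authors do not state. The gene table deposited by the authors holds raw counts, and 93.8% of its 62486 IDs matched a symbol. A total of 0 sample columns went unmapped.

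Peaks were compared in Python 3.11.15 (numpy 2.4.6, pandas 2.3.3), with interval functions tested on simulated data against bedtools 2.31.1. Compartment signals were tested with limma 3.58.1 and counts with the robust quasi-likelihood test of edgeR 4.0.16 (filterByExpr, TMM scaling, genotype as sole term) in R 4.3.3, at a Benjamini-Hochberg adjusted p of 0.05; both fits were tested on simulated data. Fold changes are log2 values and CPM use TMM-scaled library sizes. RNA-seq libraries within a genotype differed by more than sampling noise (chi-square per gene 1.66 to 6.70), and the labels do not say that libraries came from separate cultures, so p-values measure only the spread between libraries.

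The members, lists and rules were chosen with earlier results of these data known. Regions named are the widest peak of each list, the 5 widest lost, new and kept peaks, the 4 chromosomes at either end of the length ratio, the 5 TADs of at least 200 kb with the largest fall and rise, and the longest runs of bins. Genes named are SETDB1, the 6 main PRC2 and demethylase genes and the 8 other list members with the largest called change at a mean of at least 1 CPM. Alternatives were other overlap, width, coverage and scaling rules, DESeq2 1.42.0, a replicate block and leaving out each library. Inputs and any link from peaks to genes were not analysed here.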

Additional observations from a re-analysis of the deposited data

How the results depend on the processing

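Of 90 alternative values of the main results, 62 stayed within the counting interval or within 1.5 times the count; both log2 ratios stayed below 0 throughout. Merging peaks within 1 kb gave a log2 number ratio of -0.39 and a lost share of 45.7%. The wider 50% of each list gave a log2 length ratio of -0.40, a lost share of 47.5% and a new share of 29.8%. A reciprocal overlap of at least 50% gave lost and new shares of 70.4% and 60.1%, lost shares of 55.6% in A and 79.8% in B, and new shares of 56.5% in A and 64.2% in B, which turned the order of the new shares. Bins of unchanged sign gave lost shares of 23.2% and 62.3% and new shares of 34.1% and 23.5% in A and B. Leaving out chromosomes 2 and 12, which for the compartment, H3K9me3 and Hi-C results was chosen after seeing the data, gave a lost share in A of 24.3% and 62.0% of lost peak length inside KO H3K9me3. KO H3K9me3 peaks without a control partner held 22.6% of lost and 6.55% of kept peak length, and 51.5% of lost and 15.5% of kept peaks had at least 50% of their length in KO H3K9me3. Among peaks of 1 to 5 kb, H3K4me3 met 4.83% of kept control and 6.25% of kept KO peaks, H3K27ac 0.364% of kept KO peaks, and CTCF 1.05% of lost control, 1.64% of kept control and 2.65% of kept KO peaks. A threshold of 20 points left 373 rise bins called higher among fewer bins. Leaving out 1 Hi-C library at a time gave 2964 to 3111 fall bins called lower and 654 to 728 rise bins called higher. With 1 library left in a genotype, it is assumed to vary like the other. Same-numbered libraries did not deviate together (correlations of 0.11, 0.06 and 0.05 for RNA-seq and -0.0018 for Hi-C), so they share only a number; the replicate block gave 3158 fall bins called lower, 750 rise bins called higher, and 12 Polycomb genes higher and 17 lower. Of 165 alternatives for single genes, 1 changed a call, that of EZH1 (log2 fold change 0.15, edgeR adjusted p 0.0235) without control library 1. The unknown ChIP-seq depth limits every absolute peak number and width.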
